A study of Danio rerio with 8 samples.

Results

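Transected and intact spinal cord of adult zebrafish were compared with both mstnb genotypes pooled, so that the injury response could be measured over 4 libraries a side. The injured side held the 2 mstnb mutant and the 2 wild-type sibling libraries taken 1 week after injury (1 wpi in the library names). The uninjured side held 2 mutant and 2 wild-type libraries, so that 8 of the 8 libraries of the series were used. mstnb codes for a zebrafish myostatin, a secreted protein of the TGF-beta family known as a brake on muscle growth. Both sides thus carried the mutation in equal parts, and genotype entered the model as a term of its own. According to the labels, the cord was cut through completely 4 mm behind the brainstem, and the tissue was a 2 mm piece of cord that held the lesion and its flanks. The fish were of both sexes, 3 to 9 months old and about 2 cm long. The sources used here do not give the mutant allele or the number of fish behind each library. The fish of the uninjured side are labelled as uninjured, not as sham-operated. RNA of whole tissue was sequenced as 50 bp paired-end reads from TruSeq libraries.

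After a complete transection, adult zebrafish regrow axons across the lesion and recover swimming. Radial glia around the central canal, which are also its ciliated ependymal lining, divide and give rise to glia and neurons, and glial cells bridge the gap. Macrophages and microglia clear myelin and cell debris, and fibroblast-like cells lay down matrix.

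The libraries held 20082743 to 33410514 reads. Values below are CPM (reads scaled to the size of the library) divided by a TMM scaling factor, called scaled CPM. Changes are differences of log2(scaled CPM + 1), injured minus uninjured. Each is given with limma's moderated standard error. That error is drawn toward the spread of other genes of like level, so it is not the gene's own spread alone. A gene was called when its limma adjusted p was under 0.05 over the 19114 genes that averaged 1 CPM or more in at least 1 group. The pseudocount of 1 understates the changes of low genes. Most genes named below were picked by a naming rule that required a call and no overlap between injured and uninjured libraries. Their lack of overlap thus follows from the rule. Because nothing says how many fish a library stands for, the p-values cover only how far these libraries varied, and that variation may be technical. Replicates lay closer together in injured cord, with a median absolute log2 difference of 0.228 in the mutants and 0.261 in the wild type, than in uninjured cord, with 0.358 in the mutants and 0.568 in the wild type. Cord markers were present on both sides: the neuronal gene elavl4 had 507 to 622 scaled CPM in the injured libraries, against 403 to 738 in the uninjured ones. The glial filament gene gfap had 4227 to 4602 scaled CPM in the injured libraries, against 2448 to 6399.5 in the uninjured ones, and the myelin gene plp1b had 4095 to 6482 scaled CPM in the injured libraries, against 3845 to 5501 in the uninjured ones. How reads from near-identical, overlapping or antisense genes were counted was not stated, so single globins, parvalbumins, myosins, tubulins and egg genes are uncertain. In whole tissue, fewer cells of a type and less RNA per cell cannot be told apart.

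The mutated gene was examined first. mstnb had 10.6 and 14.9 scaled CPM in the injured mutants and 42.6 and 35.5 in the injured wild type, against 15.13 and 24.9 in uninjured mutants and 58.7 and 74.6 in uninjured wild type. Within each injury state, both mutant libraries stood below both wild-type libraries. Within each genotype both injured libraries lay below both uninjured ones, though the 4 injured and 4 uninjured values overlapped, and the change of -0.67 ± 0.20 was not called (limma adjusted p = 0.0659).

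The level of 1830 of 19114 genes differed between injured and uninjured libraries, 9.57% of those tested. Here and elsewhere, rose and fell mean higher and lower in the injured libraries. Of the 1830, 1168 rose, 6.11% of the genes tested, and 662 fell, 3.46%. The libraries of the 2 sides did not overlap for 1123 of the genes that rose and for 630 of those that fell. Over all genes tested, whether called or not, all 4 injured libraries lay above all 4 uninjured ones for 11.2% and below them for 7.81%. Changes of at least 2 log2 units were seen in 99 genes that rose and in 66 that fell. The split depends on scaling: the median change of all genes was 0.31 with CPM as deposited and 0.02 with TMM scaling. As deposited, 2466 genes were called higher and 263 lower, so that 90.4% of the calls were rises, against 63.8% with TMM scaling. The number of calls was 759 without wild type 1 wpi 1, 900 without mutant 1 wpi 2, 900 without wild type 1 wpi 3 and 926 without mutant 1 wpi 1. It was 1226 without mutant uninjured 1, 1339 without mutant uninjured 2, 2319 without wild type uninjured 2 and 2638 without wild type uninjured 1. A count of 1 or 2 genes in a list rests on little: 26 of the 30 such counts in the 55 lists moved by over 1.5 times in at least 1 of these fits. The lists and their members were chosen with earlier results of these data known. A called share above that of all genes is thus no independent finding about a list, here and below.

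**Figure D1:**
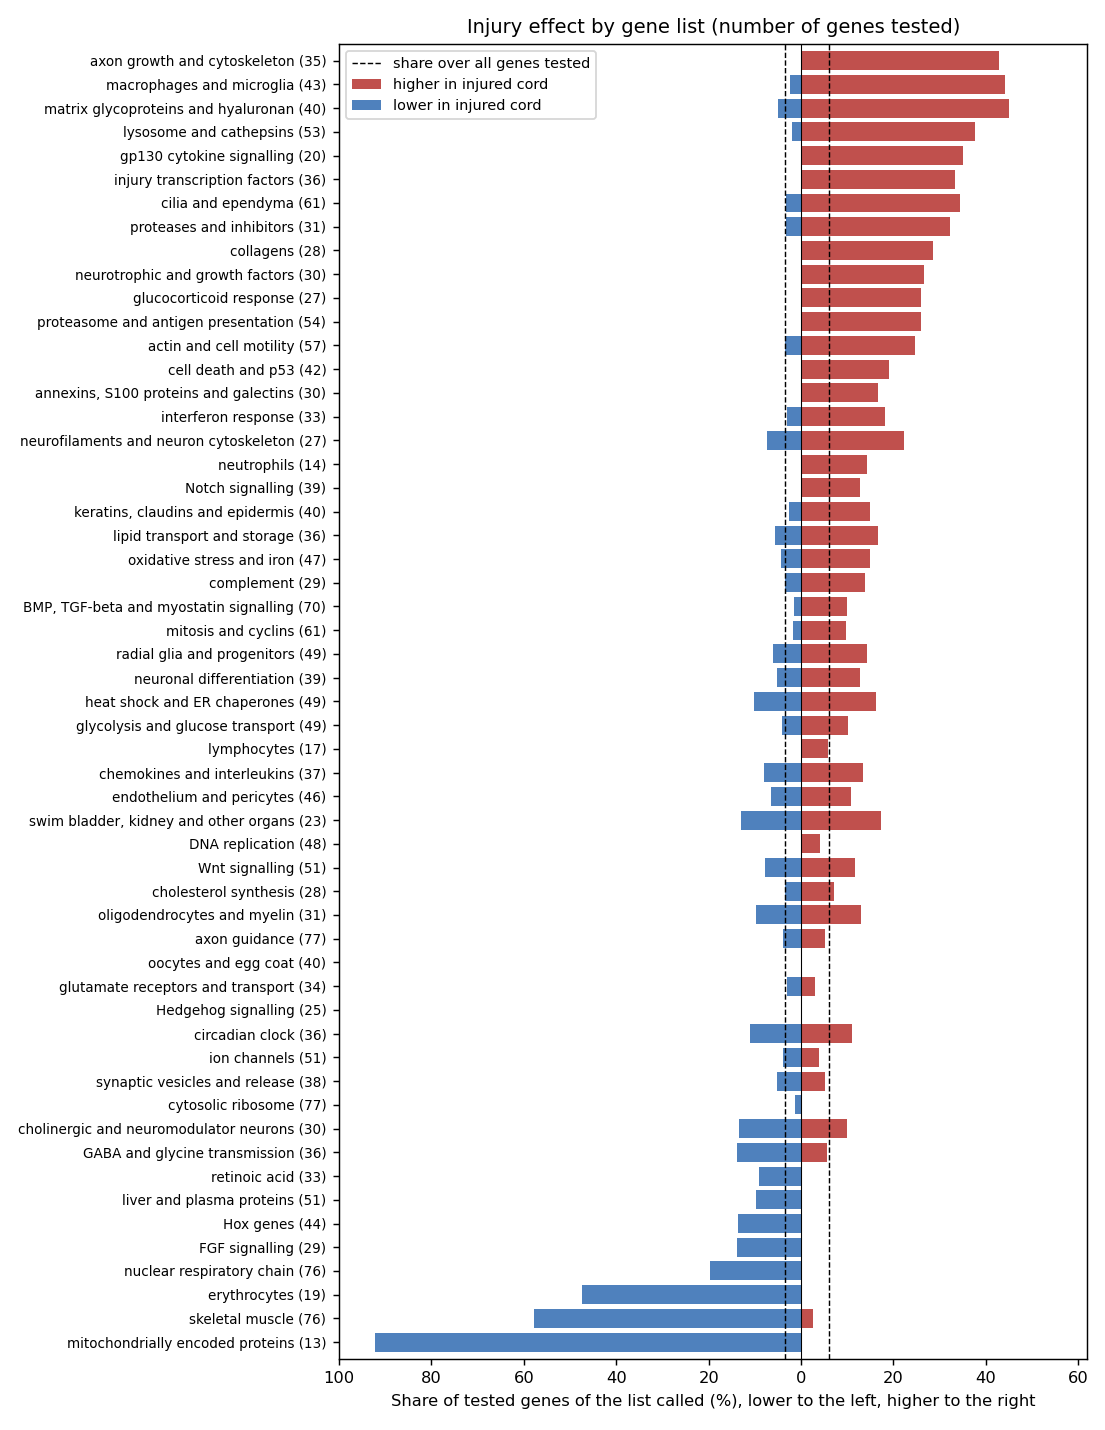
For 55 gene lists, bars show the share of the tested genes of each list that rose (right) or fell (left) in injured cord, in percent. Dashed lines mark the shares over all genes tested, 6.11% and 3.46%. The lists were chosen with earlier results of these data known, so their distance from these lines is not an independent test. Axon growth, macrophage, matrix and lysosome lists stand at the top, and skeletal muscle and mitochondrially encoded genes at the bottom, where 44 of 76 and 12 of 13 genes fell.

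The largest rises included genes for a cytokine partner, tubulins, matrix proteins and an apolipoprotein. crlf1a, which codes for the secreted partner of the cytokine Clcf1, had 63.8 and 60.9 scaled CPM in the injured mutants and 58.7 and 84.3 in the injured wild type, against 3.10 and 2.89 in uninjured mutants and 1.13 and 1.89 in uninjured wild type. The lowest injured library thus stood far above the highest uninjured one, and the change was 4.42 ± 0.24 (limma adjusted p = 1.16e-05). ndnf, a secreted neurotrophic factor gene, had 169.8 and 168 scaled CPM in the injured mutants and 192 and 158 in the injured wild type, against 10.7 and 7.22 in uninjured mutants and 12.01 and 9.31 in uninjured wild type, with a change of 4.02 ± 0.17 (limma adjusted p = 3.58e-06). These 2 sets of 4 values were both tight, and ndnf had the smallest p-value of the genes named here. tubb6, a beta-tubulin gene, had 36.0 and 42.9 scaled CPM in the injured mutants and 51.9 and 49.2 in the injured wild type, against 2.57 and 0.752 in uninjured mutants and 1.02 and 1.85 in uninjured wild type (change 4.22 ± 0.26). scn4ab, which codes for a voltage-gated sodium channel of the skeletal muscle type, had 58.5 and 47.4 scaled CPM in the injured mutants and 38.9 and 58.7 in the injured wild type, against 1.46 and 1.88 in uninjured mutants and 1.77 and 2.42 in uninjured wild type (change 4.16 ± 0.22). Here too the 4 injured values lay together above the 4 uninjured ones, as the naming rule required.

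apoeb, a gene for apolipoprotein E and known as a microglia gene, was the most abundant of the 14 largest rises and had 13605 and 10523 scaled CPM in the injured mutants and 16136 and 12805 in the injured wild type, against 1061 and 934 in uninjured mutants and 1233 and 758 in uninjured wild type (change 3.74 ± 0.26, limma adjusted p = 6.03e-05). mmp9, a matrix metalloproteinase gene, had 92.1 and 107 scaled CPM in the injured mutants and 188 and 188 in the injured wild type, against 8.18 and 5.26 in uninjured mutants and 24.6 and 6.73 in uninjured wild type (change 3.74 ± 0.31). The injured mutants lay below the injured wild type for this gene, and wild type uninjured 1 was the highest of the uninjured libraries. hapln1a, which codes for a link protein that ties hyaluronan to proteoglycans, had 127 and 149 scaled CPM in the injured mutants and 170.4 and 166 in the injured wild type, against 12.4 and 19.4 in uninjured mutants and 4.93 and 11.12 in uninjured wild type (change 3.69 ± 0.30). fkbp5, a co-chaperone gene switched on by glucocorticoids, had 474 and 500.1 scaled CPM in the injured mutants and 525 and 367 in the injured wild type, against 60.9 and 52.9 in uninjured mutants and 21.3 and 34.2 in uninjured wild type (change 3.52 ± 0.23). Of the remaining large rises, the Kit ligand gene kitlgb stood at 8.03 to 14.6 injured, against 0 to 0.113 uninjured (change 3.48 ± 0.25). The lubricin gene prg4a stood at 17.8 to 34.8 injured, against 0.820 to 1.65 uninjured (change 3.60 ± 0.27), both in scaled CPM. kitlgb was close to 0 in each uninjured library. The glial glutamate transporter gene slc1a3b stood at 10.5 to 25.7 injured, against 0.489 to 1.34 uninjured (change 3.37 ± 0.26). The membrane protease gene adam8a stood at 31.4 to 40.8 injured, against 1.93 to 3.76 uninjured (change 3.35 ± 0.22). The beta-tubulin gene tubb5 stood at 1199 to 1550.1 injured, against 110.3 to 214 uninjured (change 3.30 ± 0.22). The unnamed gene si:ch211-153b23.5 had 93.7 to 157 scaled CPM in the injured libraries, against 5.71 to 46.2 in the uninjured ones (change 3.30 ± 0.47). Its highest uninjured value was that of wild type uninjured 1. All 14 of these genes were called in each of the 8 fits that leave out 1 library.

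**Figure D2:**
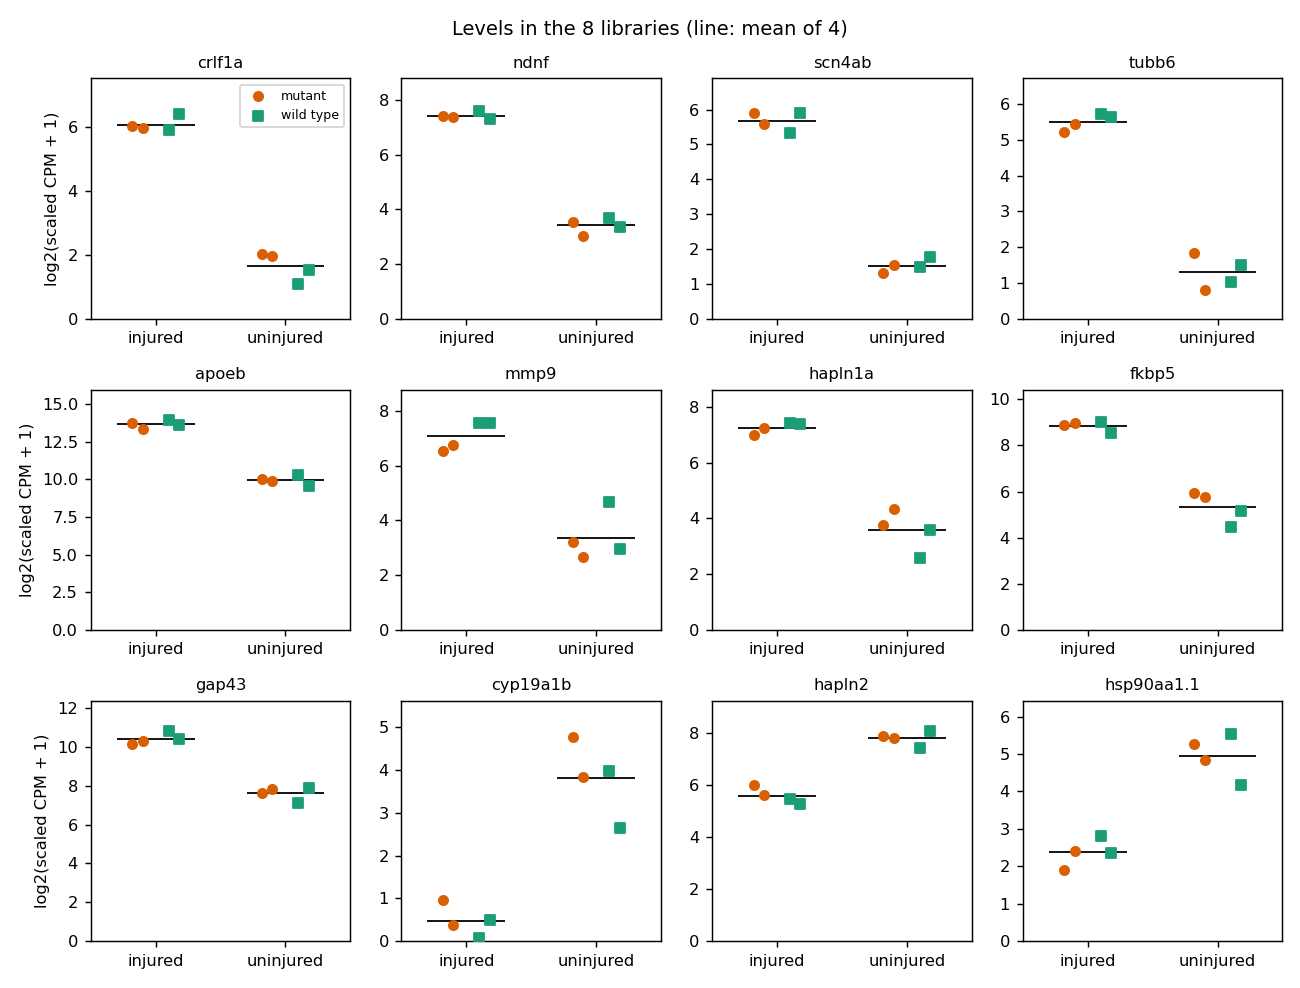
Each point is 1 library, on a log2(scaled CPM + 1) axis, for 9 genes that rose and 3 that fell (circles, mutant; squares, wild type; lines, means of the 4 libraries of a side). In none of the 12 panels do injured and uninjured libraries overlap, which was a condition for naming most of these genes. crlf1a shows the widest gap among the rises, 4.42 log2 units between the means.

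Many genes of axon growth and its cytoskeleton rose. Of this list, 15 of the 35 genes tested rose and 0 fell, with a median change of 0.66 against 0.02 over all genes tested. The called share was 42.9%, where 6.11% of all genes tested rose and 3.46% fell, so the lack of falls says little. gap43, which codes for a growth cone protein, had 1163 and 1270.0 scaled CPM in the injured mutants and 1824 and 1369 in the injured wild type, against 201 and 228 in uninjured mutants and 139 and 236 in uninjured wild type (change 2.81 ± 0.22, limma adjusted p = 0.000106). The alpha-tubulin gene tuba1b had 148 to 189.8 scaled CPM in the injured libraries, against 33.2 to 60.3 in the uninjured ones (change 1.90 ± 0.20). The number of rises in the list ran from 9 without mutant 1 wpi 1 or wild type 1 wpi 1 to 19 without wild type uninjured 1. The neurofilament and neuron cytoskeleton list, which shares gap43, was mixed: 6 of the 27 genes tested rose and 2 fell, 29.6% in all. Among its rises were intermediate filament genes. inab, an internexin gene, had 37.6 to 49.1 scaled CPM in the injured libraries, against 4.72 to 17.6 in the uninjured ones (change 1.996 ± 0.34). prph, the peripherin gene, had 129 to 207 scaled CPM in the injured libraries, against 40.6 to 77.9 in the uninjured ones (change 1.41 ± 0.17). thy1, which codes for a cell surface protein of neurons and other cells, had 56.5 to 91.4 scaled CPM in the injured libraries, against 10.9 to 44.6 in the uninjured ones (change 1.73 ± 0.28). The light neurofilament gene nefla fell (-1.07 ± 0.25), with 315 to 405 scaled CPM in the injured libraries, against 517 to 1196 in the uninjured ones. The middle neurofilament gene nefma, at 1336 to 1737 scaled CPM in the injured libraries, against 914 to 2481 in the uninjured ones, was not called (change 0.13 ± 0.32). Neurofilament list falls reached 4 without wild type uninjured 1. With CPM as deposited nefla was not called, and the call was also lost for nefla (limma adjusted p up to 0.0966) without mutant 1 wpi 1, mutant 1 wpi 2, wild type 1 wpi 1 or wild type 1 wpi 3.

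Of the injury transcription factors, 12 of the 36 genes tested rose and 0 fell (median change 0.53), 33.3% in all. Among all genes tested, 6.11% rose and 3.46% fell, so the lack of falls says little. The number of rises ran from 8 without wild type 1 wpi 1 or wild type 1 wpi 3 to 15 without wild type uninjured 2. atf3, a stress-induced bZIP factor gene that marks neurons with cut axons, had 94.8 and 96.5 scaled CPM in the injured mutants and 128 and 132 in the injured wild type, against 13.2 and 9.92 in uninjured mutants and 29.0 and 17.9 in uninjured wild type (change 2.71 ± 0.19, limma adjusted p = 6.43e-05). The AP-1 genes fosl1a and junbb had changes of 1.71 ± 0.23 and 1.67 ± 0.15; fosl1a stood at 7.81 to 9.89 injured, against 1.65 to 2.79 uninjured and junbb at 156 to 227 injured, against 42.3 to 75.1 uninjured, in scaled CPM. sox11b, a transcription factor gene of immature and regrowing neurons, had 20.6 to 32.8 scaled CPM in the injured libraries, against 4.88 to 10.7 in the uninjured ones (change 1.55 ± 0.25). In the gp130 list, of cytokines that signal through the shared receptor Il6st, 7 of the 20 genes tested rose and 0 fell. This was a called share of 35%, and the lack of falls again says little. Besides crlf1a, its ligand partner clcf1 rose from a low level, with 1.19, 2.27, 1.41 and 3.40 scaled CPM in the injured libraries, against 0.265, 0.0376, 0 and 0 in the uninjured ones (change 1.46 ± 0.28). The receptor gene il6st itself had 115 to 129.6 scaled CPM in the injured libraries, against 37.8 to 49.3 in the uninjured ones (change 1.46 ± 0.14). socs3a, a feedback inhibitor of JAK and STAT signalling, had 127, 104, 91.1 and 160.2 scaled CPM in the injured libraries, against 14.6, 14.1, 30.6 and 39.2 in the uninjured ones (change 2.35 ± 0.26). For clcf1, crlf1a, il6st and socs3a the sides did not overlap, as the naming rule required, and 13 of the 20 genes of the list were not called.

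Among neurotrophic and growth factors, 8 of the 30 genes tested rose and 0 fell, with a median change of 0.08. The called share was 26.7%, where 6.11% of all genes tested rose and 3.46% fell, so the lack of falls says little. Most members of this list were not called. The insulin-like growth factor gene igf2b had 34.3 to 38.1 scaled CPM in the injured libraries, against 13.2 to 17.2 in the uninjured ones (change 1.23 ± 0.16). The matricellular gene ccn2b had 27.2 to 52.9 scaled CPM in the injured libraries, against 10.1 to 15.4 in the uninjured ones (change 1.42 ± 0.24). Its paralogue ccn2a, a gene known for its part in glial bridging of the zebrafish cord, had 33.8, 36.4, 36.7 and 41.2 scaled CPM in the injured libraries, against 26.4, 17.96, 18.8 and 30.6 in the uninjured ones. The libraries did not overlap, but the change of 0.67 ± 0.20 missed the threshold (limma adjusted p = 0.0576). It passed with CPM as deposited (limma adjusted p = 0.0133) and in DESeq2 (adjusted p = 0.0286), but not in edgeR (adjusted p = 0.0779). The number of rises in the list ran from 3 without mutant 1 wpi 1 or mutant 1 wpi 2 to 9 without wild type uninjured 1.

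Many matrix genes rose. Of the matrix glycoprotein and hyaluronan list, 18 of the 40 genes tested rose and 2 fell (median change 0.78), 50% in all. Among all genes tested, 6.11% rose and 3.46% fell. The number of rises ran from 8 without wild type 1 wpi 1 to 21 without wild type uninjured 1. Besides hapln1a and prg4a, the laminin gene lamb2 rose, with 19.1 to 23.54 scaled CPM in the injured libraries, against 1.23 to 5.15 in the uninjured ones (change 2.63 ± 0.29). Its 2 falls were of other link protein genes, hapln2 and hapln4, known for the matrix around nodes of Ranvier and synapses. hapln2 had 63.7, 48.0, 42.7 and 37.1 scaled CPM in the injured libraries, against 233, 223, 172 and 269 in the uninjured ones (change -2.21 ± 0.18). hapln4 had 61.2, 48.5, 51.0 and 43.2 scaled CPM in the injured libraries, against 112, 129.6, 214 and 190.4 in the uninjured ones (change -1.61 ± 0.21). Link protein genes thus moved both ways, each without overlap, as the naming rule required. Of the collagens, 8 of the 28 genes tested rose and 0 fell (median 0.29), 28.6% in all. Collagen rises ran from 4 without wild type 1 wpi 1 to 9 without mutant uninjured 2. With 3.46% of all genes falling, the lack of collagen falls says little. col5a2a, a fibrillar collagen gene, had 26.7 to 46.1 scaled CPM in the injured libraries, against 6.56 to 12.2 in the uninjured ones (change 1.78 ± 0.23). col2a1a, a cartilage and notochord collagen gene, rose from almost no reads, with 3.39, 2.97, 3.80 and 3.08 scaled CPM in the injured libraries, against 0.354, 0.0376, 0 and 0.246 in the uninjured ones (change 1.90 ± 0.24). The type I collagen gene col1a1a had 38.5 and 51.5 scaled CPM in the injured mutants and 69.4 and 79.5 in the injured wild type, against 29.2 and 25.9 in uninjured mutants and 7.83 and 5.74 in uninjured wild type (change 1.98 ± 0.44). The call was lost for col1a1a (limma adjusted p up to 0.0754) without wild type 1 wpi 1 or wild type 1 wpi 3. Of the proteases and their inhibitors, 10 of the 31 genes tested rose and 1 fell (median 0.44), 35.5% in all. Rises included mmp9, adam8a, adam8b (2.34 ± 0.27) and the membrane metalloproteinase gene mmp14b (1.72 ± 0.26). mmp14b stood at 14.8 to 22.6 injured, against 3.36 to 7.51 uninjured in scaled CPM.

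Many macrophage and microglia genes rose: 19 of the 43 genes tested rose and 1 fell, with a median change of 0.75. These rises ran from 13 without wild type 1 wpi 1 to 20 without wild type uninjured 1 or wild type uninjured 2. In all, 46.5% of the list was called. Among all genes tested, 6.11% rose and 3.46% fell. The colony stimulating factor receptor gene csf1ra, needed by macrophages and microglia, had 57.5, 67.7, 58.1 and 51.1 scaled CPM in the injured libraries, against 24.6, 19.7, 10.2 and 16.7 in the uninjured ones (change 1.72 ± 0.20). The scavenger receptor gene marco had 23.7 to 28.7 scaled CPM in the injured libraries, against 4.96 to 14.2 in the uninjured ones (change 1.66 ± 0.25). lgals3bpb, which codes for a galectin-binding protein, had 239 to 332 scaled CPM in the injured libraries, against 20.7 to 53.1 in the uninjured ones (change 2.88 ± 0.25). havcr2, a receptor gene of myeloid cells, had 31.8 to 35.7 scaled CPM in the injured libraries, against 6.31 to 13.8 in the uninjured ones (change 1.83 ± 0.22). mpeg1.1, a macrophage perforin gene, was low, with 2.41, 2.04, 2.49 and 2.35 scaled CPM in the injured libraries, against 1.11, 0.752, 0.912 and 1.48 in the uninjured ones. Its change of 0.70 ± 0.23 was not called (limma adjusted p = 0.0873), though it passed with CPM as deposited (limma adjusted p = 0.0337). In the lysosome list, 20 of the 53 genes tested rose and 1 fell (median 0.58), 39.6% in all. Lysosome rises ran from 14 without wild type 1 wpi 1 to 25 without wild type uninjured 1. The cathepsin genes ctsla and ctsk had changes of 1.73 ± 0.16 and 1.36 ± 0.19. In scaled CPM, ctsla stood at 380.4 to 488 injured, against 111 to 149.8 uninjured and ctsk at 27.3 to 36.3 injured, against 8.23 to 15.0 uninjured. The progranulin gene grna (1.45 ± 0.15) and gnsb, a gene for an enzyme that breaks down heparan sulfate (1.94 ± 0.25), rose as well. Of the lipid transport and storage genes, 6 of the 36 genes tested rose and 2 fell (median -0.06), 22.2% in all. The cholesterol exporter gene abca1a had 119 to 146 scaled CPM in the injured libraries, against 23.4 to 29.0 in the uninjured ones (change 2.27 ± 0.15). Its paralogue abca1b rose too (0.81 ± 0.16). The apolipoprotein gene apoc1 had 781 to 939.7 scaled CPM in the injured libraries, against 127 to 530.1 in the uninjured ones (change 1.97 ± 0.36). Of the cholesterol synthesis genes, 2 of the 28 genes tested rose and 1 fell, the median being -0.09. That was 10.7% in all, near the 9.57% of all genes tested. Lipid transport rises came to 12 with CPM as deposited. Lipid transport falls reached 9 without wild type uninjured 2. Cholesterol synthesis falls reached 4 without wild type uninjured 2. Macrophage and microglia falls reached 3 without wild type uninjured 2.

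Genes of other immune cells and pathways moved in both directions. Over all genes tested 6.11% rose and 3.46% fell, 9.57% in all. Of the neutrophil list, 2 of the 14 genes tested rose and 0 fell, 14.3% in all. Among the rises was mmp9, which is not limited to neutrophils. The neutrophil markers mpx, at 5.23 to 10.9 scaled CPM in the injured libraries, against 4.85 to 10.6 in the uninjured ones, and lyz, at 0.851 to 2.58 scaled CPM in the injured libraries, against 1.69 to 4.999 in the uninjured ones, overlapped between the sides and were not called (changes 0.07 ± 0.31 and -0.50 ± 0.32). Of the lymphocyte list, 1 of the 17 genes tested rose and 0 fell (median -0.41), 5.88% in all, against 9.57% of all genes tested. In limma, 8 of the 17 had an unadjusted p under 0.05, against 4690 of 19114 over all genes tested. The summed lymphocyte level was 91.9 to 113 scaled CPM in the injured libraries, against 119 to 135 in the uninjured ones. In the chemokine and interleukin list, 5 of the 37 genes tested rose and 3 fell, 21.6% in all. tnfrsf11b, the gene of the decoy receptor osteoprotegerin, had 30.2, 33.9, 47.08 and 35.4 scaled CPM in the injured libraries, against 4.91, 4.43, 7.56 and 2.58 in the uninjured ones (change 2.73 ± 0.27). il4r.1, an interleukin 4 receptor gene, had 16.6 to 20.7 scaled CPM in the injured libraries, against 2.05 to 5.25 in the uninjured ones (change 2.06 ± 0.25). The interleukin gene il15 fell, with 2.45 to 4.74 scaled CPM in the injured libraries, against 7.44 to 13.6 in the uninjured ones (change -1.36 ± 0.21). In the interferon response list, 6 of the 33 genes tested rose and 1 fell, 21.2% in all. The guanylate-binding protein genes gbp1 (1.99 ± 0.31) and gbp2 (1.76 ± 0.25) and the ubiquitin-like gene isg15 (1.90 ± 0.34) rose, and isg15 stood at 31.5, 26.4, 34.1 and 24.4 scaled CPM in the injured libraries, against 4.38, 2.48, 12.7 and 14.8 in the uninjured ones. The antiviral gene rsad2 went the other way, with 11.08, 6.43, 4.60 and 3.97 scaled CPM in the injured libraries, against 57.2, 29.1, 86.7 and 29.0 in the uninjured ones (change -2.71 ± 0.38, limma adjusted p = 0.00213). Of the complement genes, 4 of the 29 genes tested rose and 1 fell, 17.2% in all, with a median of -0.46. Of the terminal component genes, c6 (1.27 ± 0.22), c7a (1.69 ± 0.28) and c7b (2.095 ± 0.18) were among the 4 rises. The list also held other terminal component genes, whose changes are not given here. c7b had 278, 252, 251 and 239 scaled CPM in the injured libraries, against 65.5, 53.8, 44.2 and 76.6 in the uninjured ones. Of the proteasome and antigen presentation list, 14 of the 54 genes tested rose and 0 fell. That made 25.9% in all, against 9.57% of all genes tested. With 3.46% of all genes falling, the lack of falls in this list says little. The invariant chain gene cd74a had 2221 to 3168 scaled CPM in the injured libraries, against 806 to 1506 in the uninjured ones (change 1.205 ± 0.21). The proteasome activator gene psme1 rose as well (1.28 ± 0.23). The number of rises in the proteasome list ran from 3 without wild type 1 wpi 1 to 20 without wild type uninjured 1. Proteasome and antigen presentation rises came to 34 with CPM as deposited. Interferon response rises ran from 3 without wild type 1 wpi 1 to 8 without wild type uninjured 1 or wild type uninjured 2, and came to 12 with CPM as deposited. Chemokine and interleukin rises ran from 3 without mutant 1 wpi 2, wild type 1 wpi 1 or wild type 1 wpi 3 to 8 without wild type uninjured 1. Chemokine and interleukin falls ran from 1 without any 1 of the injured libraries to 4 without mutant uninjured 2, and came to 1 with CPM as deposited. Complement rises came to 8 with CPM as deposited. Complement falls reached 5 without wild type uninjured 2. Neutrophil rises came to 4 with CPM as deposited.

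Annexin, S100 and galectin genes and genes of the actin skeleton were also higher more often than lower. So were all genes tested, of which 6.11% rose and 3.46% fell, 9.57% in all. Of the first list, 5 of the 30 genes tested rose and 0 fell (median 0.45), 16.7% in all. anxa2a, which codes for a calcium-dependent membrane-binding protein, had 1065, 1296, 1305 and 1343 scaled CPM in the injured libraries, against 171, 86.5, 238 and 79.4 in the uninjured ones (change 3.26 ± 0.32). The galectin genes lgals1l1 and lgals9l1 had changes of 2.18 ± 0.27 and 1.45 ± 0.25. Of the actin and motility list, 14 of the 57 genes tested rose and 2 fell (median 0.43), 28.1% in all. The cytoplasmic actin gene actb1 had 1210.5 to 1430.2 scaled CPM in the injured libraries, against 362 to 659.6 in the uninjured ones (change 1.37 ± 0.20). The filamin gene flna had 25.96 to 41.3 scaled CPM in the injured libraries, against 8.36 to 15.6 in the uninjured ones (change 1.504 ± 0.23). The gelsolin gene gsna had 97.7 to 124 scaled CPM in the injured libraries, against 21.3 to 57.5 in the uninjured ones (change 1.5 ± 0.26). The smooth muscle actin gene acta2 fell, with 29.5 to 35.09 scaled CPM in the injured libraries, against 53.5 to 98.8 in the uninjured ones (change -1.14 ± 0.18). The rises of the annexin list ran from 4 without any 1 of the injured libraries to 10 without wild type uninjured 1, and those of the actin list from 8 without wild type 1 wpi 1 to 18 without wild type uninjured 1. Annexin, S100 and galectin rises came to 17 with CPM as deposited. Actin and motility rises came to 32 with CPM as deposited.

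Radial glia genes moved in both directions. Of the radial glia and progenitor list, 7 of the 49 genes tested rose and 3 fell, with a median of 0.08. That made 20.4% in all, against 9.57% of all genes tested. The intermediate filament genes nes and vim rose: nes had 103, 109, 112 and 119 scaled CPM in the injured libraries, against 50.04, 44.5, 18.9 and 26.9 in the uninjured ones (change 1.72 ± 0.23). vim had 542, 523, 595 and 558 scaled CPM in the injured libraries, against 312, 298, 301 and 273 in the uninjured ones (change 0.90 ± 0.14). A second glial neurotransmitter transporter besides slc1a3b, the GABA transporter gene slc6a11b, had 40.6 to 56.0 scaled CPM in the injured libraries, against 10.5 to 26.2 in the uninjured ones (change 1.35 ± 0.23). In contrast, cyp19a1b, the brain aromatase gene that fish express in radial glia, was nearly absent after injury, with 0.940 and 0.297 scaled CPM in the injured mutants and 0.0469 and 0.405 in the injured wild type, against 26.2 and 13.4 in uninjured mutants and 14.8 and 5.29 in uninjured wild type (change -3.34 ± 0.36, limma adjusted p = 0.0005). ndrg2, an astrocyte gene in mammals, fell as well, with 183 to 228 scaled CPM in the injured libraries, against 376 to 582 in the uninjured ones (change -1.16 ± 0.17). gfap had 4579.7, 4227, 4602 and 4317 scaled CPM in the injured libraries, against 6399.5, 3139, 5717 and 2448 in the uninjured ones, so the uninjured libraries spanned the injured ones. Neither it (0.11 ± 0.34, limma adjusted p = 0.877) nor the progenitor factor gene sox2 (0.29 ± 0.26, limma adjusted p = 0.54) was called. The sign of the gfap difference turned in DESeq2, in the fit with a replicate term and without either mutant uninjured 2 or wild type uninjured 2. The number of rises in this list ran from 5 without wild type 1 wpi 1 to 11 without wild type uninjured 1. Radial glia and progenitor rises came to 16 with CPM as deposited.

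Many cilium genes rose as well: 21 of the 61 genes tested rose and 2 fell, with a median of 0.63. The called share was 37.7%, against 9.57% of all genes tested. The rises ran from 14 without mutant 1 wpi 1 or mutant 1 wpi 2 to 26 without wild type uninjured 1. foxj1a, the master regulator gene of motile cilia, had 83.6, 98.0, 86.4 and 99.9 scaled CPM in the injured libraries, against 43.4, 27.8, 61.02 and 40.4 in the uninjured ones (change 1.12 ± 0.20). The motile cilium genes cfap53 (1.68 ± 0.27), cfap126 (1.47 ± 0.23) and zmynd10 (1.64 ± 0.27) all lay between 5.43 and 9.89 scaled CPM in injured cord, against 0.912 to 3.59 in uninjured cord. As the naming rule required, none of these 3 genes had overlapping sides. pkd2l1, the channel gene of neurons that touch the cerebrospinal fluid, fell, with 30.7, 32.3, 25.9 and 22.8 scaled CPM in the injured libraries, against 73.8, 50.8, 64.5 and 50.9 in the uninjured ones (change -1.07 ± 0.17).

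Of the neuronal differentiation list, 5 of the 39 genes tested rose and 2 fell (median 0.00). That made 17.9% in all, against 9.57% of all genes tested. sox11b, given above, sox4a, another SOX factor gene of immature neurons (0.93 ± 0.17), and the Delta ligand gene dlb (1.61 ± 0.27) rose. dlb had 6.02 to 7.70 scaled CPM in the injured libraries, against 1.07 to 3.04 in the uninjured ones. The Notch list had no falls: 5 of the 39 genes tested rose and 0 fell, 12.8% in all. Over all genes tested 6.11% rose and 3.46% fell, so the lack of falls in so short a list says little. lfng, which codes for a modifier of the Notch receptor, had 107 to 138 scaled CPM in the injured libraries, against 53.8 to 78.6 in the uninjured ones (change 0.87 ± 0.16). The Notch count ran from 2 without mutant 1 wpi 1, mutant 1 wpi 2, wild type 1 wpi 1 or mutant uninjured 1 to 9 without wild type uninjured 1. Wnt genes split: 6 of the 51 genes tested rose and 4 fell, 19.6% in all. The ligand gene wnt4b had 165, 250.4, 207 and 249.5 scaled CPM in the injured libraries, against 45.7, 54.6, 49.8 and 37.8 in the uninjured ones (change 2.18 ± 0.19). The receptor gene fzd2 had 38.8 to 44.7 scaled CPM in the injured libraries, against 14.6 to 17.7 in the uninjured ones (change 1.32 ± 0.15). The secreted inhibitor gene dkk1a had 6.83, 4.2, 3.29 and 5.15 scaled CPM in the injured libraries, against 0.354, 0.301, 0.0536 and 0.287 in the uninjured ones (change 2.203 ± 0.25). The beta-catenin gene ctnnb2 rose (1.16 ± 0.19), and the ligand gene wnt11r fell, with 10.9 to 14.3 scaled CPM in the injured libraries, against 22.4 to 34.5 in the uninjured ones (change -1.05 ± 0.19). In the BMP, TGF-beta and myostatin list, 7 of the 70 genes tested rose and 1 fell, 11.4% in all, against 9.57% of all genes tested. Among the 7 rises were the pseudoreceptor gene bambia (1.37 ± 0.17), the follistatin gene fstb (1.87 ± 0.23) and the follistatin-like gene fstl1b (1.57 ± 0.16). The other rises and the fall are not named, so these genes do not stand for the list. fstb, which codes for a binding protein of activin and myostatin, was low, with 5.11, 5.02, 3.85 and 4.90 scaled CPM in the injured libraries, against 0.354, 0.752, 0.483 and 0.697 in the uninjured ones. FGF genes had falls alone: 0 of the 29 genes tested rose and 4 fell, 13.8% in all. With 6.11% of all genes rising, the lack of rises in so short a list says little. The feedback inhibitor gene spry2 had 42.5 to 60.5 scaled CPM in the injured libraries, against 80.6 to 118 in the uninjured ones (change -0.94 ± 0.15), a call lost with CPM as deposited. Retinoic acid genes also had falls alone: 0 of the 33 genes tested rose and 3 fell, 9.09% in all, and the lack of rises says as little. cyp26a1, whose enzyme breaks retinoic acid down, had 15.8 to 27.13 scaled CPM in the injured libraries, against 34.6 to 64.8 in the uninjured ones (change -1.27 ± 0.19). The FGF list had 2 higher and 1 lower with CPM as deposited, and the retinoic acid list 3 higher and 3 lower. Of 25 Hedgehog genes 0 were called in limma. In this list 7 had an unadjusted p under 0.05, against 4690 of 19114 over all genes tested, and with CPM as deposited 3 were called higher. Neuronal differentiation rises ran from 3 without wild type 1 wpi 1 or wild type 1 wpi 3 to 6 without wild type uninjured 1. Notch rises came to 12 with CPM as deposited. Wnt rises came to 11 with CPM as deposited. Wnt falls ran from 1 without mutant 1 wpi 1, wild type 1 wpi 1, wild type 1 wpi 3 or mutant uninjured 1 to 5 without wild type uninjured 1, and came to 2 with CPM as deposited. BMP, TGF-beta and myostatin rises ran from 3 without any 1 library other than mutant 1 wpi 1, wild type uninjured 1 or wild type uninjured 2 to 9 without wild type uninjured 2. BMP, TGF-beta and myostatin falls reached 3 without wild type uninjured 1. FGF falls ran from 2 without wild type 1 wpi 1 to 6 without wild type uninjured 1. Retinoic acid rises reached 3 without wild type uninjured 1. Retinoic acid falls ran from 1 without mutant 1 wpi 2, wild type 1 wpi 1, wild type 1 wpi 3 or mutant uninjured 1 to 4 without wild type uninjured 2.

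**Figure D3:**
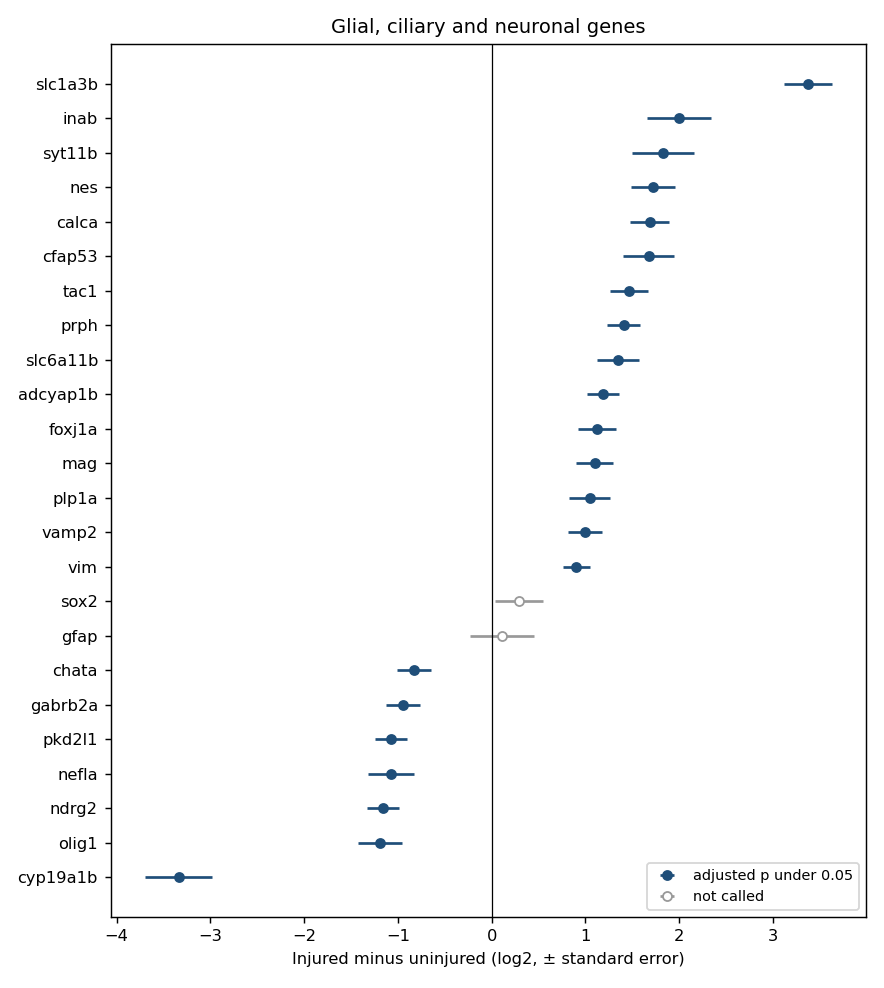
Changes (log2, injured minus uninjured) of glial, ciliary and neuronal genes named in the text are drawn with their standard errors, filled where called and open where not. slc1a3b (3.37) and cyp19a1b (-3.34), both genes of radial glia, lie at opposite ends, and gfap and sox2 lie near 0.

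Genes of 3 neuropeptides rose, and some genes of synaptic transmission fell. calca, a calcitonin gene-related peptide gene, had 1073 and 932 scaled CPM in the injured mutants and 792 and 592 in the injured wild type, against 244 and 232 in uninjured mutants and 322 and 238 in uninjured wild type (change 1.68 ± 0.21, limma adjusted p = 0.00105). tac1, the substance P precursor gene, had 969, 856, 1181 and 750.3 scaled CPM in the injured libraries, against 324, 251, 439 and 349 in the uninjured ones (change 1.47 ± 0.20). adcyap1b, a PACAP gene, had 214, 198, 219 and 182 scaled CPM in the injured libraries, against 64.1, 90.2, 108 and 96.9 in the uninjured ones (change 1.19 ± 0.17). These 3 sets of injured values all lay above the uninjured ones, as the naming rule required. In the whole cholinergic and neuromodulator list, 3 of the 30 genes tested rose and 4 fell, 23.3% in all, against 9.57% of all genes tested. A second PACAP gene, adcyap1a, was among the falls, with 1.004 to 1.59 scaled CPM in the injured libraries, against 2.97 to 5.66 in the uninjured ones (change -1.20 ± 0.25). chata, whose enzyme makes acetylcholine in motor neurons, fell, with 166 to 187 scaled CPM in the injured libraries, against 260.0 to 447 in the uninjured ones (change -0.83 ± 0.18). Of GABA and glycine genes, 2 of the 36 genes tested rose and 5 fell (median -0.15), 19.4% in all. The GABA receptor gene gabrb2a had 23.8 to 31.9 scaled CPM in the injured libraries, against 44.6 to 67.8 in the uninjured ones (change -0.94 ± 0.18). The calls of chata and gabrb2a were lost with CPM as deposited. Leaving out libraries ended the call of adcyap1a (limma adjusted p up to 0.0694) without mutant 1 wpi 2, wild type 1 wpi 1, wild type 1 wpi 3 or mutant uninjured 1, and that of chata (limma adjusted p up to 0.0943) without mutant 1 wpi 1, mutant 1 wpi 2, wild type 1 wpi 1 or wild type 1 wpi 3, and that of gabrb2a (limma adjusted p up to 0.0576) without wild type 1 wpi 1. Of the glutamate genes, 1 of the 34 genes tested rose and 1 fell, the rise being that of slc1a3b. The called share of this list was 5.88%, below the 9.57% of all genes tested. For synaptic vesicle genes, 2 of the 38 genes tested rose and 2 fell, 10.5% in all, near the share of all genes. The vesicle fusion gene vamp2 rose, with 75.4 to 84.6 scaled CPM in the injured libraries, against 28.6 to 54.7 in the uninjured ones (change 0.997 ± 0.18). syt11b, a synaptotagmin gene, rose with 51.0 to 84.5 scaled CPM in the injured libraries, against 8.47 to 28.4 in the uninjured ones (change 1.83 ± 0.33). snap25a, a fusion protein gene of presynaptic terminals, had 2117 to 2462 scaled CPM in the injured libraries, against 2266 to 4747 in the uninjured ones, which overlapped, and was not called (change -0.55 ± 0.26). Of 51 ion channel genes, 2 rose and 2 fell, 7.84% in all, below the share of all genes. After scn4ab, the sodium channel beta subunit gene scn1ba had 6.01 to 9.85 scaled CPM in the injured libraries, against 1.18 to 3.72 in the uninjured ones (change 1.47 ± 0.25). With CPM as deposited, 0 genes of the GABA and glycine, glutamate, synaptic vesicle and ion channel lists were called lower. Cholinergic and neuromodulator rises reached 5 without wild type uninjured 1, and came to 6 with CPM as deposited. Cholinergic and neuromodulator falls ran from 1 without mutant 1 wpi 2, wild type 1 wpi 1 or wild type 1 wpi 3 to 5 without wild type uninjured 1, and came to 2 with CPM as deposited. GABA and glycine falls ran from 0 without wild type 1 wpi 1 to 6 without wild type uninjured 1, and came to 0 with CPM as deposited. Glutamate rises came to 3 with CPM as deposited. Glutamate falls reached 6 without wild type uninjured 1. Synaptic vesicle rises came to 4 with CPM as deposited. Ion channel falls reached 5 without wild type uninjured 1.

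Myelin genes did not share 1 direction. Of the oligodendrocyte and myelin list, 4 of the 31 genes tested rose and 3 fell (median 0.05). That made 22.6% in all, against 9.57% of all genes tested. mag, which codes for a myelin-associated glycoprotein, had 207, 197, 197 and 230.0 scaled CPM in the injured libraries, against 109, 132, 63.1 and 93.6 in the uninjured ones (change 1.101 ± 0.20). The tight junction gene cldn19 had 94.4 to 118 scaled CPM in the injured libraries, against 41.9 to 79.9 in the uninjured ones (change 0.93 ± 0.17). plp1a, a proteolipid protein gene, had 42.3 to 52.3 scaled CPM in the injured libraries, against 16.0 to 34.9 in the uninjured ones (change 1.05 ± 0.22). olig1, a transcription factor gene of the oligodendrocyte lineage, fell, with 5.09 to 6.99 scaled CPM in the injured libraries, against 10.1 to 20.1 in the uninjured ones (change -1.19 ± 0.23). Leaving out libraries also ended the call of olig1 (limma adjusted p up to 0.052) without mutant 1 wpi 2 or wild type 1 wpi 1, and that of plp1a (limma adjusted p up to 0.0585) without mutant 1 wpi 2 or wild type 1 wpi 3. The most abundant myelin gene, mbpa, had 34307 and 28287 scaled CPM in the injured mutants and 35222 and 31086 in the injured wild type, against 182970.0 and 77028 in uninjured mutants and 94556 and 80543 in uninjured wild type. No injured library overlapped an uninjured one, yet the change of -1.66 ± 0.60 was not called (limma adjusted p = 0.116). It passed with CPM as deposited (limma adjusted p = 0.00564), in edgeR (adjusted p = 0.0148) and in DESeq2 (adjusted p = 2.41e-09). In the endothelium and pericyte list, 5 of the 46 genes tested rose and 3 fell, 17.4% in all. The endothelial adhesion gene pecam1 rose, with 47.09, 39.1, 50.8 and 53.3 scaled CPM in the injured libraries, against 10.9, 12.6, 13.9 and 11.9 in the uninjured ones (change 1.86 ± 0.16). So did the pericyte receptor gene pdgfrb, with 50.6 to 63.1 scaled CPM in the injured libraries, against 27.4 to 33.7 in the uninjured ones (change 0.87 ± 0.15). The endothelial cadherin gene cdh5 (-0.45 ± 0.26) and the VEGF receptor gene kdrl (-0.71 ± 0.22) were not called. Injured and uninjured libraries overlapped for cdh5 but not for kdrl, at 7.66 to 11.5 injured, against 13.7 to 20.04 uninjured scaled CPM. Myelin list rises ran from 2 without mutant 1 wpi 2 or wild type 1 wpi 3 to 5 without wild type uninjured 2, and came to 7 with CPM as deposited. Myelin list falls ran from 1 without mutant 1 wpi 2 or wild type 1 wpi 1 to 3 without wild type uninjured 1. Endothelium and pericyte rises ran from 3 without mutant 1 wpi 1, wild type 1 wpi 1 or wild type 1 wpi 3 to 9 without wild type uninjured 2, and came to 10 with CPM as deposited. Endothelium and pericyte falls reached 5 without wild type uninjured 1, and came to 1 with CPM as deposited.

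Of the cell cycle lists, 11.5% of the mitosis and cyclin genes and 4.17% of the DNA replication genes were called, against 9.57% of all genes tested. Of the mitosis and cyclin list, 6 of the 61 genes tested rose and 1 fell (median 0.24). Of the DNA replication list, 2 of the 48 genes tested rose and 0 fell (median 0.17). The proliferation marker gene mki67 had 13.0 and 16.3 scaled CPM in the injured mutants and 19.4 and 22.6 in the injured wild type, against 9.69 and 10.4 in uninjured mutants and 6.17 and 4.55 in uninjured wild type (change 1.15 ± 0.28). The call was lost for mki67 (limma adjusted p up to 0.0961) without mutant 1 wpi 2, wild type 1 wpi 1 or wild type 1 wpi 3. The number of mitosis rises ran from 0 without mutant 1 wpi 2, wild type 1 wpi 1 or wild type 1 wpi 3 to 12 without wild type uninjured 1 and that of replication from 0 without mutant 1 wpi 1, wild type 1 wpi 1, wild type 1 wpi 3 or mutant uninjured 2 to 12 without wild type uninjured 1. As deposited, the counts were 11 higher and 0 lower for mitosis and 12 higher and 0 lower for replication. Of the cell death and p53 list, 8 of the 42 genes tested rose and 0 fell, 19% in all. The rises ran from 4 without mutant 1 wpi 1 to 12 without wild type uninjured 1. caspb, a gene of the inflammatory caspase of zebrafish, had 67.4, 67.2, 74.3 and 48.2 scaled CPM in the injured libraries, against 15.8, 9.85, 14.8 and 13.2 in the uninjured ones (change 2.18 ± 0.20). The growth arrest genes gadd45ga (2.22 ± 0.32) and gadd45bb (1.69 ± 0.23) rose as well. Cell death and p53 rises came to 16 with CPM as deposited.

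Stress genes were divided. In the oxidative stress and iron list, 7 of the 47 genes tested rose and 2 fell. That made 19.1% in all, against 9.57% of all genes tested. The heme oxygenase gene hmox1a had 33.3 to 63.6 scaled CPM in the injured libraries, against 10.7 to 26.5 in the uninjured ones (change 1.51 ± 0.19). The thioredoxin gene txn had 546 to 775 scaled CPM in the injured libraries, against 162 to 318 in the uninjured ones (change 1.56 ± 0.22). keap1a, the gene of a repressor of Nrf2, had 86.7 to 121 scaled CPM in the injured libraries, against 20.8 to 32.2 in the uninjured ones (change 1.92 ± 0.18). For heat shock and endoplasmic reticulum chaperones, 8 of the 49 genes tested rose and 5 fell, 26.5% in all. The rises ran from 2 without mutant 1 wpi 2 or wild type 1 wpi 1 to 12 without wild type uninjured 1. The constitutive chaperone gene hspa8 rose, with 1524 to 1720.0 scaled CPM in the injured libraries, against 542 to 870.3 in the uninjured ones (change 1.095 ± 0.20). So did trib3, a target of the unfolded protein response (1.70 ± 0.21). hsp90aa1.1, a chaperone gene known for its part in zebrafish muscle, fell, with 2.70, 4.35, 6.01 and 4.09 scaled CPM in the injured libraries, against 37.6, 27.7, 45.3 and 17.02 in the uninjured ones (change -2.59 ± 0.31). The inducible gene hsp70l fell too, with 1.64 to 3.53 scaled CPM in the injured libraries, against 5.71 to 15.4 in the uninjured ones (change -1.52 ± 0.29). The summed skeletal muscle transcripts were 2672 to 6142 scaled CPM in the injured libraries, against 11064 to 45180.5 in the uninjured ones, and their part in the fall of hsp90aa1.1 was not tested. Of the glucocorticoid response list, 7 of the 27 genes tested rose and 0 fell, with a median of 0.58. That made 25.9% in all, against 9.57% of all genes tested. With 3.46% of all genes falling, the lack of falls in so short a list says little. Without mutant 1 wpi 1, mutant 1 wpi 2, wild type 1 wpi 1 or mutant uninjured 2 the rises came to 5. They reached 10 without wild type uninjured 2. Besides fkbp5, the transcription factor gene klf9 had 36.3, 33.0, 26.8 and 21.4 scaled CPM in the injured libraries, against 4.16, 6.31, 2.63 and 6.07 in the uninjured ones (change 2.42 ± 0.25). The mTOR inhibitor gene ddit4 had 22.9, 17.7, 16.7 and 15.4 scaled CPM in the injured libraries, against 2.92, 2.82, 3.43 and 4.43 in the uninjured ones (change 2.12 ± 0.22). Clock genes went both ways: 4 of the 36 genes tested rose and 4 fell, 22.2% in all. The repressor gene nr1d2a had 114 to 134 scaled CPM in the injured libraries, against 29.7 to 51.1 in the uninjured ones (change 1.52 ± 0.17). ciarta, another clock repressor gene, had 59.06 to 65.0 scaled CPM in the injured libraries, against 9.66 to 31.0 in the uninjured ones (change 1.57 ± 0.26). aanat1 and aanat2, genes of the enzyme that starts melatonin synthesis, moved apart. aanat1 had 5.72, 5.72, 7.04 and 7.21 scaled CPM in the injured libraries, against 0.442, 0.827, 1.82 and 0.697 in the uninjured ones (change 1.97 ± 0.25). aanat2 had 0.572, 0.595, 0.422 and 0.892 scaled CPM in the injured libraries, against 4.73, 3.98, 3.59 and 2.91 in the uninjured ones (change -1.56 ± 0.24). The time of day of collection was not stated. Oxidative stress and iron rises came to 11 with CPM as deposited. Oxidative stress and iron falls reached 7 without mutant uninjured 2. Chaperone rises came to 15 with CPM as deposited. Chaperone falls ran from 2 without wild type 1 wpi 1 to 7 without wild type uninjured 2. Glucocorticoid response rises came to 14 with CPM as deposited. Clock rises came to 9 with CPM as deposited. Clock falls ran from 1 without mutant 1 wpi 1, mutant 1 wpi 2, wild type 1 wpi 1 or mutant uninjured 1 to 5 without wild type uninjured 1, and came to 1 with CPM as deposited.

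Mitochondrial transcripts took a smaller share of the injured libraries. Reads on the 32 mitochondrial entries made up 12.6% to 13.3% of injured libraries, against 21.5% to 32.8% of uninjured ones. The means were 13.05% ± 0.312 in injured and 25.1% ± 5.21 in uninjured libraries (SD, n = 4 each). The difference of -12.05 percentage points had p = 0.0286 in a two-sided exact permutation test, the smallest that 4 against 4 allows. Of the mitochondrially encoded proteins, 0 of the 13 genes tested rose and 12 fell (median -1.39), the falls running from 6 without mutant 1 wpi 2 to 12 without mutant uninjured 2 or wild type uninjured 2. mt-nd1, a complex I subunit gene, had 461 to 584 scaled CPM in the injured libraries, against 997 to 2157 in the uninjured ones (change -1.46 ± 0.25). mt-atp6, an ATP synthase subunit gene, had 1909 to 2594 scaled CPM in the injured libraries, against 5311 to 10750.4 in the uninjured ones (change -1.67 ± 0.29). Of the nuclear genes of the respiratory chain, 0 of the 76 genes tested rose and 15 fell (median -0.50), the falls running from 3 without mutant 1 wpi 2, wild type 1 wpi 1, wild type 1 wpi 3 or mutant uninjured 1 to 29 without wild type uninjured 2. As deposited the list had 0 higher and 8 lower. The called share was 92.3% in the mitochondrially encoded list and 19.7% in the nuclear list. Among all genes tested, 6.11% rose and 3.46% fell. The cytochrome oxidase genes cox4i1l (-2.09 ± 0.23), cox6a2 (-2.04 ± 0.37) and cox8b (-1.71 ± 0.22) fell; COX6A2 and COX8B are muscle forms in mammals. In the glycolysis list, 5 of the 49 genes tested rose and 2 fell. That made 14.3% in all, against 9.57% of all genes tested. hk2, a hexokinase gene, had 22.3 to 23.55 scaled CPM in the injured libraries, against 3.57 to 9.999 in the uninjured ones (change 1.93 ± 0.27). pfkfb4b, a gene for a bifunctional regulator of glycolysis, had 148 to 202 scaled CPM in the injured libraries, against 51.7 to 74.1 in the uninjured ones (change 1.54 ± 0.16). The phosphoglycerate mutase gene pgam2, the muscle form in mammals, fell, with 2.3 to 8.46 scaled CPM in the injured libraries, against 18.01 to 42.1 in the uninjured ones (change -2.21 ± 0.34). Skeletal muscle transcripts, whose sum was 2672 to 6142 scaled CPM in the injured libraries, against 11064 to 45180.5 in the uninjured ones, were lower in the same libraries, and their part in these falls was not tested. Cytosolic ribosome genes were called for 1 fall among 77 tested with TMM scaling, but for 17 rises with CPM as deposited, where their median was 0.42 against 0.31 for all genes. Glycolysis rises ran from 3 without any 1 library other than mutant uninjured 1, wild type uninjured 1 or wild type uninjured 2 to 7 without wild type uninjured 1 or wild type uninjured 2, and came to 12 with CPM as deposited. Glycolysis falls reached 4 without wild type uninjured 2.

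Some Hox genes fell and none was called higher. Of the Hox list, 0 of the 44 genes tested rose and 6 fell (median -0.44), so that 13.6% fell, against 3.46% of all genes tested. hoxd12a fell, with 3.38 to 5.76 scaled CPM in the injured libraries, against 10.5 to 21.9 in the uninjured ones (change -1.60 ± 0.27). hoxc12b fell too, with 2.80 to 9.86 scaled CPM in the injured libraries, against 15.6 to 24.7 in the uninjured ones (change -1.77 ± 0.31). Both belong to the posterior end of their clusters, genes known to mark the caudal body. Hox falls ran from 2 without wild type 1 wpi 1 or wild type 1 wpi 3 to 6 without wild type uninjured 1 or wild type uninjured 2, and came to 2 with CPM as deposited. Of 77 axon guidance genes, 4 rose and 3 fell, 9.09% in all, against 9.57% of all genes tested. Axon guidance rises ran from 1 without wild type 1 wpi 3 to 6 without wild type uninjured 2. Axon guidance falls ran from 0 without mutant 1 wpi 2 or wild type 1 wpi 1 to 5 without wild type uninjured 1, and came to 0 with CPM as deposited. rtn4a, the zebrafish counterpart of the gene for the growth inhibitor Nogo, had 203 to 255 scaled CPM in the injured libraries, against 87.9 to 124 in the uninjured ones (change 0.996 ± 0.16). Among keratins, claudins and epidermal genes, 6 of the 40 genes tested rose and 1 fell, 17.5% in all. The tight junction gene cldn7a had 155 to 195 scaled CPM in the injured libraries, against 44.5 to 65.4 in the uninjured ones (change 1.66 ± 0.14). The skin keratin marker krt4 overlapped, at 5.47 to 16.0 scaled CPM in the injured libraries, against 4.72 to 18.2 in the uninjured ones, and was not called. Keratin, claudin and epidermal rises ran from 2 without wild type 1 wpi 1 to 8 without wild type uninjured 1, and came to 10 with CPM as deposited.

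The largest falls were mostly in transcripts of other tissues, above all skeletal muscle. Of the skeletal muscle list, 2 of the 76 genes tested rose and 44 fell (median -1.15), the falls running from 26 without wild type 1 wpi 1 or wild type 1 wpi 3 to 46 without wild type uninjured 1, with 2 higher and 37 lower as deposited. Its summed level was 6142 and 5146 scaled CPM in the injured mutants and 2672 and 3066 in the injured wild type, against 27723 and 17951 in uninjured mutants and 45180.5 and 11064 in uninjured wild type. Each injured library lay below each uninjured one, and wild type uninjured 1 was the highest. In all, 60.5% of the list was called, where 6.11% of all genes tested rose and 3.46% fell. pvalb3, a parvalbumin gene, had 135 and 99.3 scaled CPM in the injured mutants and 76.0 and 68.7 in the injured wild type, against 2158 and 1306 in uninjured mutants and 3596 and 997 in uninjured wild type (change -4.27 ± 0.37, limma adjusted p = 0.000158). The myosin light chain genes mylpfa (-3.73 ± 0.49) and mylz3 (-3.05 ± 0.35), the alpha-actin gene actc1b (-3.32 ± 0.33), the tropomyosin gene tpma (-3.41 ± 0.40) and the troponin gene tnni2a.3 (-3.37 ± 0.42) fell, as did the parvalbumin genes pvalb1 (-3.42 ± 0.61) and pvalb4 (-3.56 ± 0.41). Also among the 14 largest falls were the mitochondrial creatine kinase gene ckmt2a (-3.08 ± 0.50) and the nucleoside diphosphate kinase gene nme2b.2 (-2.95 ± 0.37). For each of these genes every injured library lay below every uninjured one, as the naming rule required. Not every muscle gene behaved so: the fast myosin heavy chain gene myhz2 stood at 2.29 to 11.2 scaled CPM in the injured libraries, against 1.18 to 10.8 in the uninjured ones. The part of adjoining muscle in the dissected pieces was not tested.

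Red blood cell genes also fell. Of the erythrocyte list, 0 of the 19 genes tested rose and 9 fell (median -1.07). The called share was 47.4%, against 9.57% of all genes tested. Erythrocyte falls ran from 5 without mutant 1 wpi 1 or mutant 1 wpi 2 to 10 without wild type 1 wpi 3, wild type uninjured 1 or wild type uninjured 2. The summed level was 1129 and 1063 scaled CPM in the injured mutants and 1208 and 1297 in the injured wild type, against 12414 and 5940.3 in uninjured mutants and 7041 and 1912 in uninjured wild type. The globin genes hbaa1 (-2.66 ± 0.35), hbba1 (-2.67 ± 0.50), hbaa2 (-3.34 ± 0.64) and hbba2 (-3.75 ± 0.84) fell. hbaa1 had 140.0, 172, 162 and 200.4 scaled CPM in the injured libraries, against 1948, 1355, 1130.0 and 425 in the uninjured ones. The call was lost for hbba2 (limma adjusted p up to 0.0809) without mutant 1 wpi 1, mutant 1 wpi 2, wild type 1 wpi 1 or mutant uninjured 1. Liver and plasma protein genes had a low median, -1.80. Of this list, 0 of the 51 genes tested rose and 5 fell, a share of falls of 9.8%, against 3.46% over all genes tested. The falls ran from 1 without wild type 1 wpi 1, wild type 1 wpi 3 or mutant uninjured 1 to 32 without wild type uninjured 2. Liver and plasma protein falls came to 13 with CPM as deposited. Their sum was 262 and 235 scaled CPM in the injured mutants and 248 and 301 in the injured wild type, against 1381 and 422 in uninjured mutants and 10627 and 461 in uninjured wild type. Wild type uninjured 1 had the highest of these sums. vtg1, a yolk precursor gene made in the liver of females, was the largest fall of all, with 0 and 0.112 scaled CPM in the injured mutants and 0.282 and 0.122 in the injured wild type, against 16.8 and 2.48 in uninjured mutants and 2757 and 50.5 in uninjured wild type (change -5.60 ± 1.28). The call was lost for vtg1 (limma adjusted p up to 0.0932) without wild type 1 wpi 1, wild type 1 wpi 3 or mutant uninjured 1. In limma, 4690 of all 19114 genes had an unadjusted p under 0.05, and 1 of the 40 oocyte genes tested. In the average over both genotypes, 0 of these oocyte genes were called. Their sum was 2653 and 797 scaled CPM in the injured mutants and 127 and 117 in the injured wild type, against 414 and 137 in uninjured mutants and 3016 and 522 in uninjured wild type. The sums of injured libraries thus lay higher in mutants and lower in wild type, without overlap within a genotype. An average over genotypes joins these opposite differences, so the lack of calls does not speak for either genotype alone. With the most oocyte-rich library of each side left out, 964 genes were called higher and 488 lower. The share of other tissues in any single result was not tested.

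**Figure D4:**
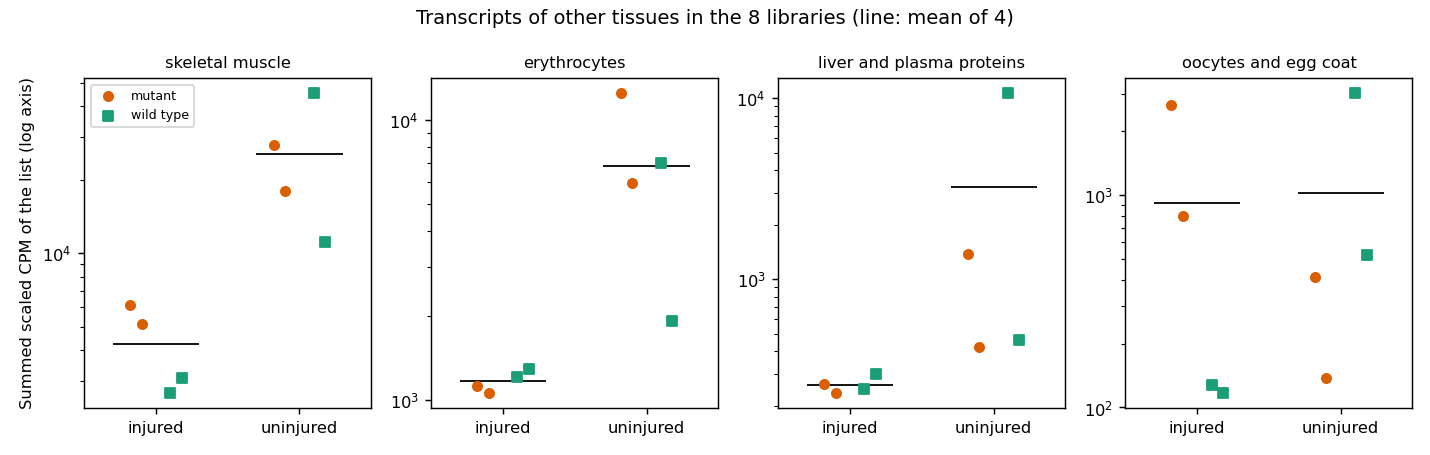
The summed scaled CPM of 4 lists of other tissues is plotted by library on log axes (circles, mutant; squares, wild type; lines, means of 4). Muscle and erythrocyte sums lie lower in each injured library than in any uninjured one, liver sums reach 10627 in 1 uninjured library, and oocyte sums overlap.

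The genotypes shared the direction of the response. All 1830 called genes had the same sign in mutants and in wild type, which a test of the average favours. The change of crlf1a was 3.99 in the mutants and 4.85 in the wild type, that of ndnf 4.12 in the mutants and 3.92 in the wild type, that of fkbp5 3.08 in the mutants and 3.97 in the wild type and that of cyp19a1b -3.64 in the mutants and -3.04 in the wild type. On the test of the difference itself, the interaction of genotype and injury, 36 of 19114 genes were called (0.188%), 35 of them with a higher change in the mutants. Of these 36, 10 are in the oocyte list, whose sums differed between libraries as given above, and 1 was also called for injury. That gene was col1a1a, with a change of 0.68 in the mutants and 3.29 in the wild type, a difference of -2.61 ± 0.37 (limma adjusted p = 0.0447). With CPM as deposited 108 genes were called for the interaction. edgeR called 0, and 775 of 19114 had an unadjusted p under 0.05, a share below the 0.05 that chance alone gives. With each genotype on its own, 4 libraries a fit, 1035 genes were called for injury in mutants and 112 in wild type. These counts do not compare the size of the responses. The uninjured replicates differed by a median absolute log2 difference of 0.568 in wild type and 0.358 in mutants.

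**Figure D5:**
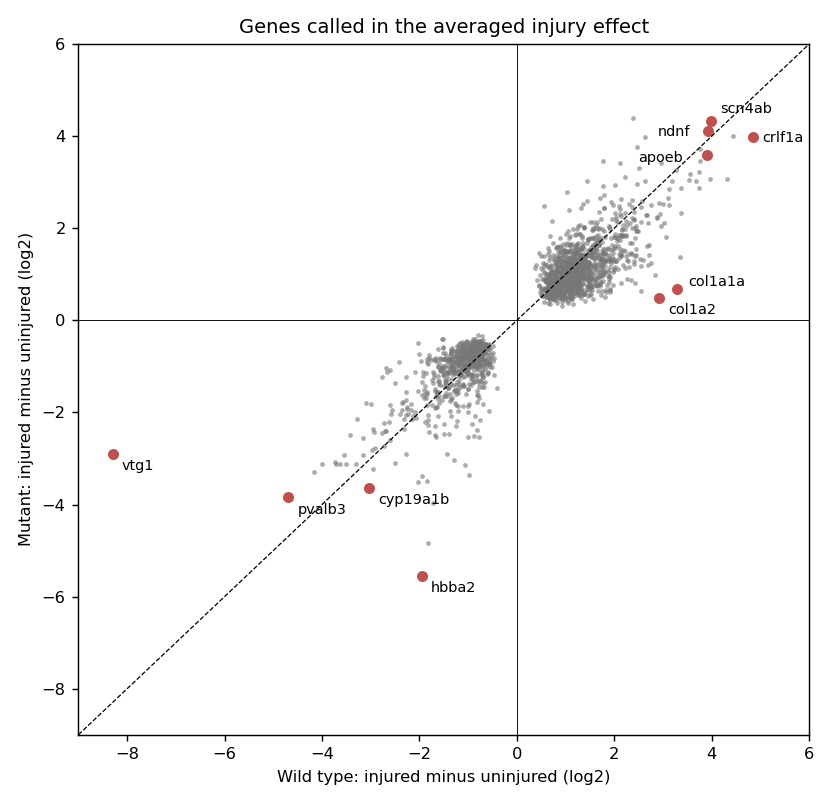
Each grey point is 1 of the 1830 called genes, with its injury change (log2) in wild type on the horizontal axis and in mutants on the vertical axis. The dashed line marks equal changes. Red points are labelled genes, all but col1a2 named in the text. All points lie where both changes have the same sign, and col1a1a and vtg1 lie far from the line.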

How the data were processed

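RNA-seq libraries of 8 zebrafish spinal cord samples were analysed, 4 injured and 4 uninjured. The authors deposited 4 tables with the same 25309 entries and the same 8 columns of CPM, per the file headers. Their values agreed to a relative difference of at most 1.13e-08. Over the tables, 16 symbols did not match those of the table used here and were counted as turned into dates. The symbols of the table used here were kept. The tools named are Cuffdiff, Cufflinks and Bowtie2, per the submitters' processing notes, with no roles or versions. Genome build, annotation and strandedness of counting were not stated there. Groups came from the labels; the column of 1 injured wild-type library carries the number 3, which no label has, and it was placed by its group name.

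CPM steps gave whole reads for 100% of the values within 0.01 reads, and so the depth of each library; 1 read was worth at most 0.0498 CPM. TMM factors from these reads (edgeR 4.0.16) ran from 0.677 to 1.19. Tests used limma 3.58.1 (R 4.3.3; trended prior) on log2(scaled CPM + 1), with genotype and injury terms, 5 residual degrees of freedom and Benjamini-Hochberg adjustment over 19114 genes; the interaction came from a fit of 4 group means. The design had been written for counts or CPM, and its part for CPM was followed. edgeR and DESeq2 1.42.0 on the recovered reads, other scalings, filters and pseudocounts were alternatives. The fits were tested on simulated data.

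Genes that could be named were picked by a rule: the 14 largest rises and 14 largest falls among called genes whose sides did not overlap, up to 4 such genes a direction from each of 55 lists, 10 genes of interest, and marker genes for their levels only. Of 2575 list symbols 2421 were found, 17 of them under another symbol. The members and lists were chosen with earlier results of these data known.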

Additional observations from a re-analysis of the deposited data

Results flagged for a closer look

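In 12 of 332 groups of 4 values (the injured and uninjured libraries for each of the 165 genes named in the text, and for the mitochondrial share), 1 library stood apart from the other 3 by Dixon's test (on the log2 scale for genes). Chance gives about 1 in 20. Among injured libraries, mutant 1 wpi 1 was low for adam8b (19.1 scaled CPM) and anxa2a (1065), and wild type 1 wpi 1 was low for cldn19 (94.4) and fstb (3.85) and high for rtn4a (255).

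Among uninjured libraries, mutant uninjured 1 was high for clcf1 (0.265 scaled CPM) and fstl1b (38.2), and mutant uninjured 2 was low for abca1a (23.4). Wild type uninjured 1 was high for calca (322) and si:ch211-153b23.5 (46.2), and wild type uninjured 2 was high for gbp2 (8.82). The mitochondrial share of mutant uninjured 1, 32.8%, stood above those of the other uninjured libraries.

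The injury change of col1a1a was smaller in mutants than in wild type by the interaction test, with a difference of -2.61 (limma adjusted p = 0.0447). The 2 injured libraries of the wild type were the highest of the 8 for this gene. The genotypes also differed without injury: both uninjured mutant libraries stood above both uninjured wild-type libraries.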

How the results depend on the processing

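The main limits are scaling, the uneven uninjured libraries and the number of libraries. Against 1830 calls, 1168 higher and 662 lower, leaving out 1 library at a time gave 759 to 2638 calls, 573 to 1599 higher and 186 to 1039 lower. DESeq2 called 2996 genes, 1478 of them lower, and limma with library weights 2858, 1768 higher and 1090 lower. edgeR called 1660, of which 1579 were among the 1830. With CPM as deposited 2466 were called higher and 263 lower, and with CPM of reads outside the mitochondrial entries 415 were called lower. Within wild type alone 112 genes were called, 63 higher and 49 lower, and within mutants alone 1035, 255 of them lower; these fits have 2 libraries a side. Calls stayed within 1.5 times the main count with pseudocounts of 0.25 and 5, no filter, a filter of 5 CPM, no genotype term and 4 group means. The interaction gave 108 calls with CPM as deposited and 0 in edgeR, against 36.

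In a fit with a replicate block, 1038 genes were called, 671 higher and 367 lower. The number 3 belongs to wild type 1 wpi 3 alone, so its term fits that library exactly. That library thus adds nothing to the injury estimate of the block fit, which also holds for the block results below. The numbers were not taken as pairs, since nothing in the labels ties them to a shared batch. The deviations of 7 of 9 same-numbered pairs correlated at 0.17 to 0.26, and those of the others at 0.01 and -0.01. Most same-numbered libraries thus deviated weakly in the same direction, and whether they shared a batch was not tested. With 2 libraries a group the deviations mirror each other, so these pairs are not all independent. The values 0.19, 0.21 and 0.26 each recur for numbers 1 and 2.

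Of the 250 called genes that the naming rule picked, 206 were still called with CPM as deposited. The number was 229 in edgeR, 249 in DESeq2 and 177 with the replicate block. It was 156 to 249 with 1 library left out, 156 in mutants alone and 40 in wild type alone. That 0 turned their sign was largely fixed in advance, since the rule required no overlap. 151 were called in all 8 fits that leave out 1 library. The uncalled gfap difference turned to -0.0423 in DESeq2, -0.0525 with the replicate block, and ran from -0.127 to 0.362 with 1 library left out, below 0 without mutant uninjured 2 (-0.0646) and without wild type uninjured 2 (-0.127). The mitochondrial share differed by -13.2 to -9.48 percentage points with 1 library left out, where 3 against 4 allows no p under 0.0571. The causes of these shifts were not tested. Genes near 1 CPM rest on about 20 to 33 reads a library, and small changes there were not detectable.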
